A study of Mus musculus with 47 samples.

Results

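Messenger RNA levels of 9 cytokine receptors of blood cells were followed across 47 leukaemic mouse spleens. The receptors were Kit, Flt3, Epor, Csf2rb, Csf2ra, Il3ra, Csf3r, Il7r and Il6ra. They were chosen by name, as receptors for growth and survival signals of blood cells, and make up 9 of the 18193 genes named on the arrays. The level of a gene was that of its brightest single-gene probe set, on the log2 scale of the RMA values.

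Cytokine receptors are surface proteins that let a blood cell take up instructions to survive, divide or mature. Kit, the receptor for stem cell factor, and Flt3, the receptor for FLT3 ligand, are receptor tyrosine kinases of early progenitors, and Kit stays high in mast cells. The other receptors have no kinase of their own and signal through bound JAK kinases to STAT factors. Epor binds erythropoietin and keeps red cell precursors alive. Csf2rb is the beta chain shared by the receptors for GM-CSF, IL-3 and IL-5, and Csf2ra and Il3ra are the ligand-binding alpha chains for GM-CSF and IL-3. Csf3r binds G-CSF and drives the making of neutrophils. Il7r binds IL-7 and is needed for early B and T cells in the mouse, and Il6ra binds IL-6 and signals through Il6st. Because each receptor belongs to particular lineages, markers of 13 blood and tissue cell types were set beside every receptor.

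Each array held RNA of the spleen tumour of 1 mouse with an undifferentiated myeloid leukaemia at terminal stage. An insertion of the transposon in Erg, an ETS family transcription factor gene, was labelled in 26 tumours and its absence in 21. All mice carried the transgene Tg(ACTB-cre)2Mrt, in which an actin promoter drives Cre in most tissues. They also carried the allele Gt(ROSA)26Sortm2(sb11)Njen, the source of the Sleeping Beauty transposase. The mobile transposon came either from line TgTn(sb-T2/Onc2)6113Njen (21 mice, 9 of them with the Erg label) or from line TgTn(sb-T2/Onc2)6070Njen (26 mice, 17 with the label). The labels gave 25 mice as female and 22 as male, and ages from 32 to 97 with no unit. No spleen without leukaemia was analysed here, so a level cannot be set against a healthy organ. RNA of leukaemic and other spleen cells was mixed on each array, and fewer cells of a type cannot be told apart from less RNA per cell.

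The pairing of arrays with labels carries a limit. The sex read from Xist alone, as female above log2 7, matched the labelled sex in 23 arrays and went against it in 24. Relations between genes within the arrays do not use the labels, but every comparison of labelled groups does. RNA quality was read from the control probe sets of actin and Gapdh, as the level at the 3′ end minus that at the 5′ end, where a larger value means shorter RNA or copies. It had a median of 1.31 log2 units and was highest, at 2.96 and 2.61, in 2 arrays that recur below. The next array stood at 2.13.

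The receptors fell into 3 kinds by how far their levels ran. Flt3, Csf3r, Il7r and Csf2rb were bright in some spleens and dim in others, spanning 5.12, 3.45, 3.67 and 2.79 log2 units. Epor and Kit ran over 1.21 and 1.51 units. Csf2ra, Il3ra and Il6ra stayed near the floor of the array in all 47 spleens and spanned only 0.52, 0.88 and 0.99 units. A level says nothing about whether one receptor is more abundant than another, since probe sets differ in how well they bind.

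Flt3 ran from 5.18 through a median of 5.33 to 10.31 and exceeded log2 7 in 9 spleens. The largest step between neighbouring spleens, from 8.38 to 9.56, left 7 spleens above it and 40 below. Csf3r ran from 5.22 through a median of 5.57 to 8.66, with a step from 6.48 to 7.46 that put 13 spleens above and 34 below. These steps took up 23.0% and 28.3% of the range, and both receptors were treated as having separate high and low spleens. That division was made after the values were seen. For Flt3 and Csf3r, correlations are therefore given within each set, except those of Csf3r by identifier number.

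Il7r ran from 5.31 through 5.76 to 8.98 and exceeded log2 7 in 11 spleens, with its largest step covering 13.7% of the range. Csf2rb ran from 6.20 through 6.98 to 8.99 and lay above log2 7 in 22 spleens. Epor ran from 5.80 through 6.59 to 7.01 and exceeded log2 7 in 1 spleen. Kit ran from 5.38 through 5.88 to 6.90 and exceeded it in 0 spleens. The lowest, median and highest levels were 5.18, 5.32 and 5.70 for Csf2ra, 5.17, 5.30 and 6.04 for Il3ra, and 5.16, 5.38 and 6.15 for Il6ra. None of these 3 genes was above log2 7 in any spleen.

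**Figure D1:**
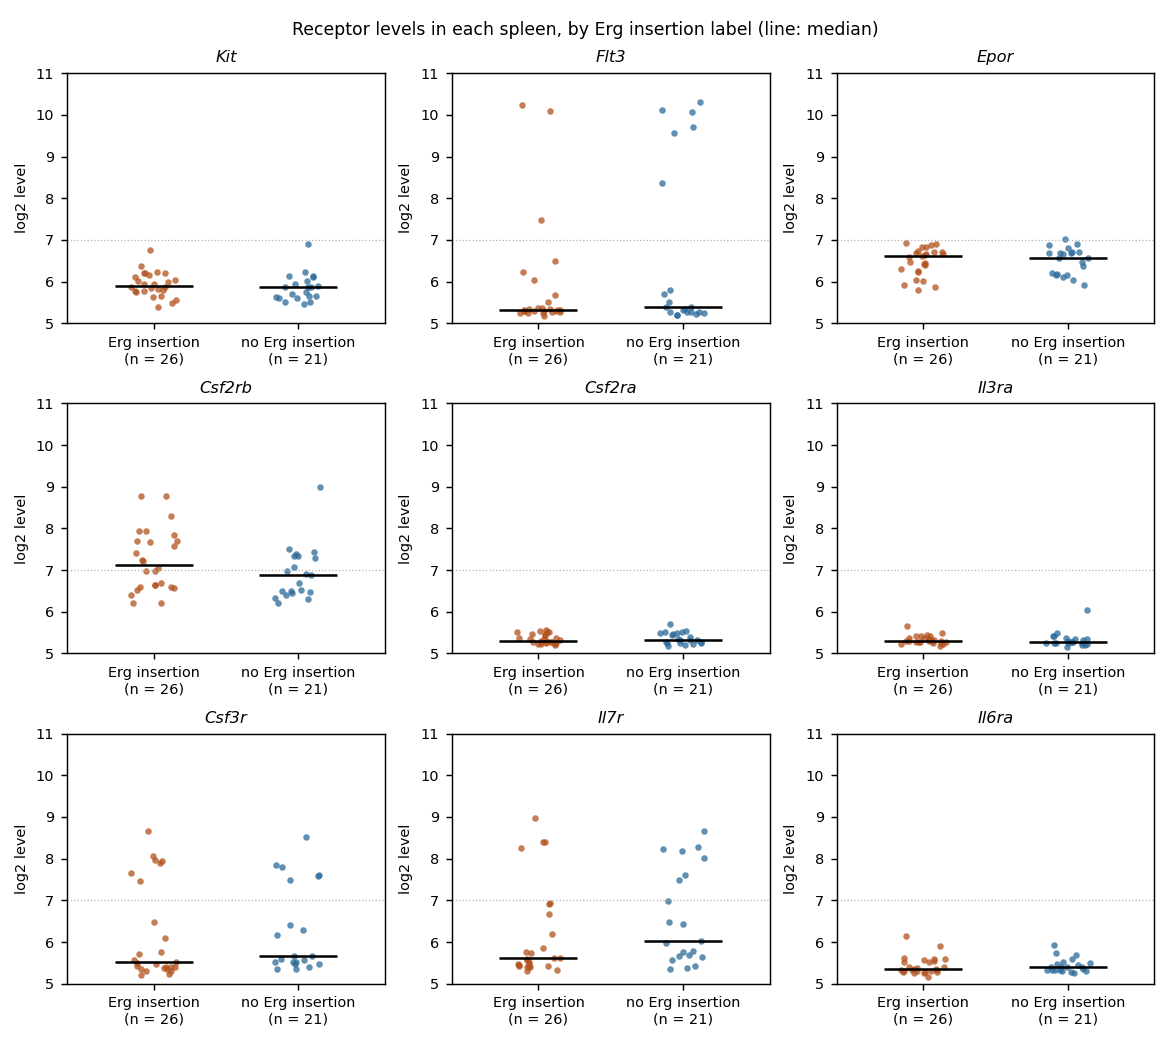
Level of each receptor on the log2 scale in every spleen, with Erg insertion on the left (n = 26) and no Erg insertion on the right (n = 21). Each point is 1 spleen, the line is the group median and the dotted line marks log2 7. Flt3 and Csf3r have separate high spleens in both groups, and the groups overlap for all 9 receptors.

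The first question was whether a receptor followed the Erg insertion label. Flt3 averaged 5.89 ± 1.36 in spleens with the Erg insertion and 6.60 ± 2.04 in those without (SD, n = 26 and 21). Of the 7 spleens with high Flt3, 2 carried the Erg label and 5 did not. Csf2rb averaged 7.24 ± 0.74 with the insertion and 6.93 ± 0.64 without. Il7r averaged 6.16 ± 1.12 with the insertion and 6.60 ± 1.15 without. In all 3 the groups overlapped over most of their range. With line and sex as covariates, the differences were -0.58 ± 0.51 for Flt3, 0.31 ± 0.20 for Csf2rb and -0.33 ± 0.33 for Il7r (SE). None of the 9 receptors passed limma's test after Benjamini-Hochberg adjustment (adjusted p = 0.999 for each), and 0 reached an unadjusted p under 0.05. Across all genes, 0 of 18178 (0%) were called for this label, with 666 at an unadjusted p under 0.05.

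The transposon line, the labelled sex and the age label gave no called receptor either. Il7r had the smallest unadjusted p for the line, 6.72 ± 1.26 in line 6113 and 6.07 ± 0.97 in line 6070 (SD, n = 21 and 26), with a difference of 0.59 ± 0.33 (SE, adjusted p = 0.999, limma). Kit averaged 6.00 ± 0.36 in mice labelled female and 5.79 ± 0.20 in mice labelled male (n = 25 and 22), a difference of 0.21 ± 0.09 (SE, unadjusted p = 0.0179, limma). Csf2rb averaged 7.28 ± 0.71 in mice labelled female and 6.90 ± 0.66 in those labelled male, a difference of 0.41 ± 0.20 (SE, unadjusted p = 0.0433, limma). Neither passed the adjustment (adjusted p = 1.00 for both), and 24 of the 47 arrays went against their sex label. Csf3r had a slope of -0.34 ± 0.12 log2 units per 10 units of the age label (SE, unadjusted p = 0.00595, adjusted p = 1.00, limma). The median age label was 54 in the 13 spleens with high Csf3r and 71 in the 34 with low Csf3r. Each of these 3 comparisons called 0 of 18178 genes (0%), with 540, 460 and 688 genes at an unadjusted p under 0.05 for line, sex and age.

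Whether the Erg difference itself differed between lines was tested as an interaction. Csf3r averaged 6.58 ± 1.30 with the insertion and 5.97 ± 0.87 without it in line 6113 (SD, n = 9 and 12). In line 6070 it averaged 5.96 ± 1.03 with the insertion and 6.68 ± 1.17 without (n = 17 and 9). The means were ordered in opposite ways in the lines, and the interaction was 1.31 ± 0.66 log2 units (SE, unadjusted p = 0.0538, adjusted p = 0.703, limma). The interaction called 0 of 18178 genes (0%), with 1286 at an unadjusted p under 0.05.

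The second question was which lineage markers each receptor goes with. For each receptor, limma fitted every other gene on the receptor's level over the 47 arrays and adjusted p over all 18177 genes. A gene is called higher or lower with a receptor where the adjusted p was under 0.05. Because the whole transcriptome moved with some receptors, the count in each marker list is read against the share of all genes called. Correlations carry Pearson's r, Spearman's rho and two-sided permutation p-values of 100000 resamples, for which 1e-05 is the smallest possible.

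**Figure D2:**
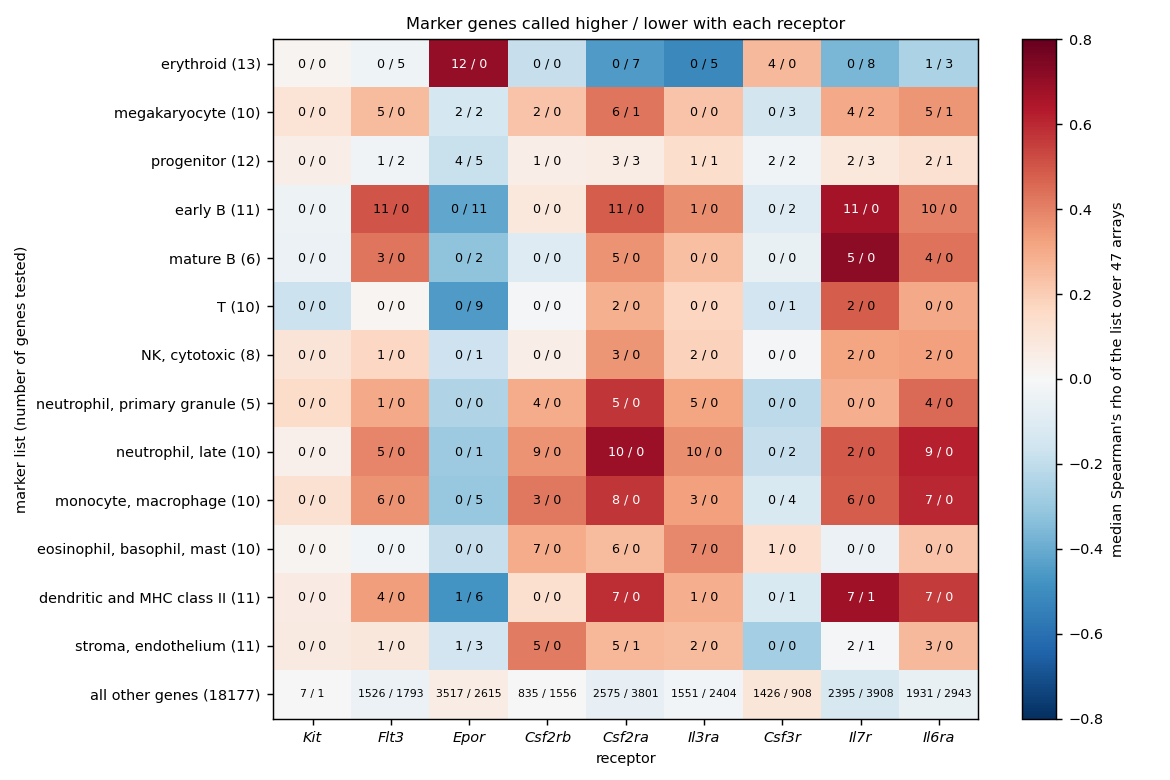
Marker lists (rows, with the number of genes tested) against the 9 receptors (columns). Colour gives the median Spearman's rho of the list over 47 arrays, and the numbers give the genes called higher and lower with the receptor. The erythroid list has 12 of 13 genes higher with Epor, the early B list has 10 or 11 of 11 genes higher with Flt3, Csf2ra, Il7r and Il6ra, and the late neutrophil list 9 or 10 of 10 with Csf2rb, Csf2ra, Il3ra and Il6ra.

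Few genes went with Kit. Among all other genes, 7 were called higher with it and 1 lower, which is 0.0385% and 0.0055% of all genes. None of 12 progenitor, 10 eosinophil, basophil and mast cell, or 13 erythroid markers was called. Gata2, a transcription factor of stem and mast cells that partners Kit in many cells, ran from 5.46 through 6.13 to 8.61. It had an r of 0.22 (p = 0.134) and a rho of 0.25 (p = 0.0944) with Kit, and an r of 0.11 without the 2 farthest spleens (adjusted p = 0.890, limma). Cd34 and Lmo2, markers of stem and progenitor cells, had rho of 0.23 and 0.22 (adjusted p = 0.961 and 0.902). The mast cell gene Hdc had a rho of 0.28 (adjusted p = 0.955).

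The genes most like Kit were Pip4k2a, Tspan14, Txnip, Serpinb6a and Dennd5a, with rho from 0.48 to 0.50 (each permutation p of rho at most 0.00071). Among them 1 passed the whole-table fit, the protease inhibitor Serpinb6a (r = 0.65, p = 2e-05, adjusted p = 0.00497). It gave an r of 0.40 without the 2 farthest spleens. Snrpc and Pfkp were least like Kit, with rho of -0.52 and -0.51 (adjusted p = 0.426 and 0.243). The second Kit probe set spanned only 0.24 log2 units, had a rho of 0.30 with the first, and called 0 genes.

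Flt3 went with early B cell genes. All 11 early B markers were called higher with Flt3, against 8.4% of all genes called higher and 9.86% called lower. Vpreb1, part of the surrogate light chain of the pre-B cell receptor, lay between 9.34 and 11.06 in the 7 spleens with high Flt3 (median 10.62) and between 5.18 and 10.92 in the other 40 (median 5.38). Every spleen with high Flt3 had Vpreb1 above log2 7, as did 8 of the others. Within the sets, rho of Flt3 with Vpreb1 was 0.36 over the 7 high spleens and 0.41 over the 40 low ones.

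Blnk, an adaptor of B cell receptor signalling, lay between 7.56 and 9.57 in spleens with high Flt3 and between 5.37 and 9.03 in the others. Rag1, which cuts immunoglobulin and T cell receptor genes for joining, lay between 6.24 and 8.27 in spleens with high Flt3 and between 4.98 and 8.88 in the others. Dntt, the terminal transferase that adds bases at such joins, exceeded log2 7 in 3 of the 7 spleens and in 3 of the 40. It was called higher with Flt3 (adjusted p = 0.0381, limma), with rho of 0.14 and 0.12 within the sets. The early B count was 6 of 11 on ranks and within line 6113, and 7 within line 6070 and with principal component 1. In the low spleens alone, 0 of 11 early B markers were called, although the 3 named by the rule (Vpreb1, Vpreb3 and Blnk) had rho of 0.35 to 0.41 there.

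Markers of other cell types moved with Flt3 as well. Called higher were 6 of 10 monocyte and macrophage, 5 of 10 late neutrophil, 5 of 10 megakaryocyte and 3 of 6 mature B markers. The part of such cells in the early B counts was not tested. In the T cell list 0 of 10 genes were called with Flt3 in either direction. Of the dendritic and MHC class II list 4 of 11 were higher, among them Irf8, a transcription factor of dendritic and B cells (adjusted p = 0.000314). That count was 0 on ranks, within line 6113 and with principal component 1, and 1 in the low spleens alone. Of 12 progenitor markers, 1 was higher and 2 were lower. The one higher was Sox4, a transcription factor of lymphoid progenitors, at 8.54 to 9.87 in spleens with high Flt3 and 5.54 to 9.72 in the others (adjusted p = 0.000546). Gata2 and Lmo2 were lower with Flt3 (adjusted p = 0.0185 and 0.0148). Of the erythroid list 5 of 13 were lower, including Gata1 (adjusted p = 0.00877).

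Of 24 signalling genes, 6 were called higher and 5 lower with Flt3, against 8.4% and 9.86% of all genes. Stat5a and Stat5b had medians of 5.88 and 6.10 in the 7 spleens with high Flt3. In the other 40 their medians were 6.59 and 6.42. Whether STAT5 activity differed was not tested. The share of all genes whose levels do not overlap between the Flt3 sets was not counted, so such separation is not read as a result. Socs2, among those called higher, encodes a feedback inhibitor that STAT5 induces. It stood at 7.53 to 8.95 in the 7 spleens with high Flt3 (median 8.36). In the other 40 it stood at 5.38 to 7.06 (median 6.11). Its adjusted p was 7.9e-12, and its rho within the sets was 0.46 and 0.18. Csf1, the ligand of the macrophage receptor Csf1r, was also called higher with Flt3 (adjusted p = 6.07e-07). The 5 genes whose order over all spleens was most like that of Flt3 were Hpgd, Adgre4, Wdfy4, Vpreb1 and Hmgn3. Their rho within the sets ran from 0.25 to 0.79 over the 7 high spleens and from 0.41 to 0.58 over the low ones.

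Epor followed the erythroid programme closely. Of 13 erythroid markers, 12 were called higher with Epor and 0 lower, against 19.3% of all genes called higher and 14.4% called lower. The exception was the anion exchanger Slc4a1 (rho = 0.01, adjusted p = 0.666, limma). Gata1, the master transcription factor of red cells, ran from 5.64 through 7.79 to 8.30 and rose with Epor over its whole range (r = 0.91, rho = 0.83, p = 1e-05 for both, adjusted p = 9.03e-16). Klf1, which switches on adult globin genes, ran from 5.62 through 9.14 to 9.99 (r = 0.89, rho = 0.77, p = 1e-05 for both, adjusted p = 1.89e-14). The carbonic anhydrase Car2 and the erythroid nuclear protein gene Hemgn had rho of 0.81 and 0.79. Leaving out the 2 spleens farthest from the median of Epor gave an r of 0.90 for Gata1 and 0.87 for Klf1. Within the 33 arrays whose tumour identifier holds the number 9, rho was 0.88 for Gata1 and 0.80 for Klf1. Within the 11 arrays with the number 7 it was 0.54 and 0.47.

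The promoter of Epor is shown because Gata1 and Klf1 bind known DNA words and moved with Epor over these spleens. It is the RefSeq window of 250 bases before to 50 after the start, on the minus strand of GRCm38.p6 at chr9:21963527-21963826. Capitals mark the GATA word AGATAA, here read on the other strand as TTATCT, and the CACCC word CCACCC bound by Klf1-type factors.
Epor: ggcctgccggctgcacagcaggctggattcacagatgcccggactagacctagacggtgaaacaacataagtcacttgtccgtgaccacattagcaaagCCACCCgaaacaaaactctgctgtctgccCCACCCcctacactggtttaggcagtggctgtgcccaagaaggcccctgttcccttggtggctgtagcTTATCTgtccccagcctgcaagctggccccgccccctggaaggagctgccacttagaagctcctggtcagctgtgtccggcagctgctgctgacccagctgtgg
The GATA word begins 54 bases before the start, and the CACCC words begin 151 and 122 bases before it. Searched on both strands, the GATA word occurs in 11.2% of 32851 promoter windows of the same length, the CACCC word in 31.5% and both in 2.63%. The words do not overlap in this window. Of the 9 receptors, 8 had a promoter entry. The GATA word also occurred once in that of Il6ra, and the CACCC word 3 times each in those of Csf3r and Csf2ra, 2 times in Il3ra and once in Kit. A match describes the letters and not a bound site.

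The genes most like Epor were Trappc10, Unc50, Tal1, Isg20 and Blvrb, with rho from 0.85 to 0.89 and r from 0.85 to 0.91 (each p = 1e-05). Tal1 is a partner of Gata1 in red cell precursors and ran from 6.46 through 8.60 to 9.55, and Blvrb makes a reductase of haem breakdown. Without the 2 farthest spleens their r ran from 0.81 to 0.91. Ddx54 and Sptan1 were least like Epor, with rho of -0.82 and -0.80. Lymphoid genes went the other way: 11 of 11 early B and 9 of 10 T cell markers were lower with Epor. The lymphoid genes named by the rule were Rag2, Rag1 and Blnk (rho = -0.64, -0.63 and -0.51) and Lef1, Cd5 and Cd2 (rho = -0.68, -0.56 and -0.55). The megakaryocyte list had 2 of 10 genes higher and 2 lower, near the shares of all genes (19.3% and 14.4%). Its median rho with Epor was -0.14. Gp5 and Itga2b, surface proteins of platelets and megakaryocytes, were higher (rho = 0.65 and 0.57), and the platelet chemokine Pf4 had a rho of 0.40 (adjusted p = 0.0534).

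Much of this variation lay on 1 axis of the whole data. Principal component 1 held 35.7% of the variance of all tested genes. Turned so that Epor is positive, it had a rho of 0.74 with Epor, -0.84 with Il7r, -0.79 with Csf2ra and -0.65 with Il6ra (each p = 1e-05). With this component as a covariate, 11 of 13 erythroid markers were still called higher with Epor, while 0 of 11 early B and 0 of 10 T cell markers were called.

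**Figure D3:**
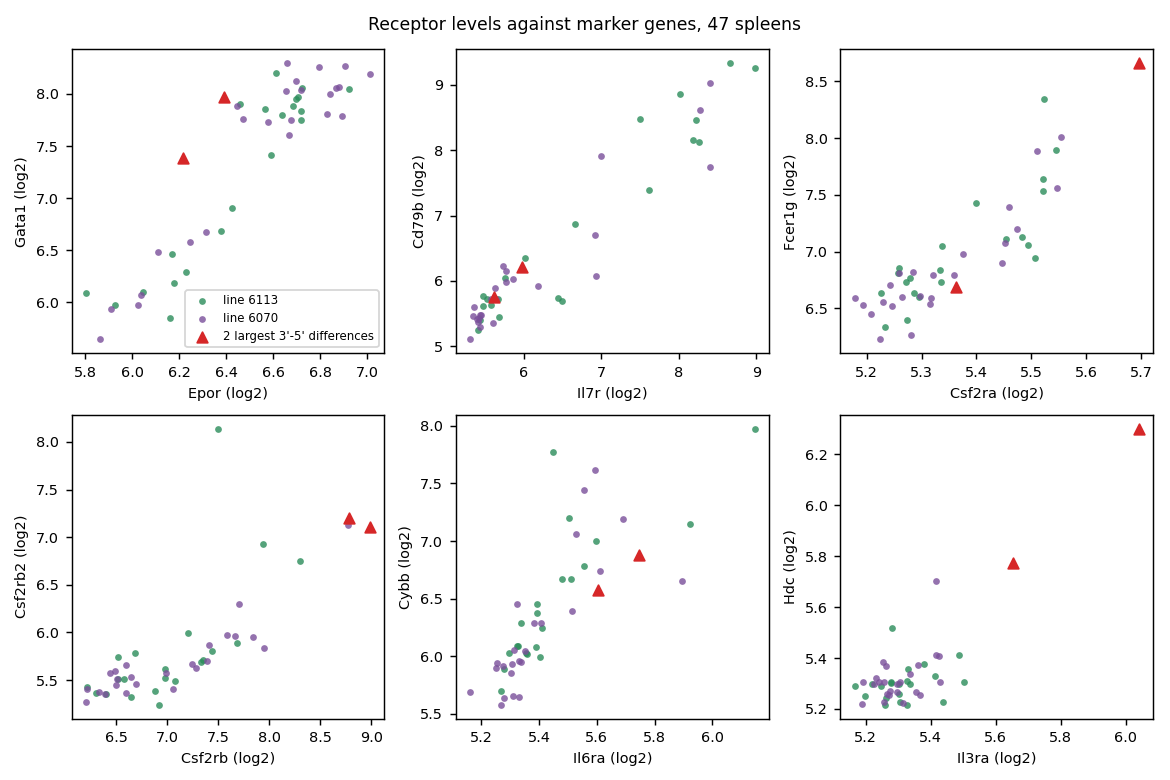
Receptor level (x, log2) against the level of a marker gene (y, log2) in 47 spleens, with line 6113 in green, line 6070 in purple and the 2 arrays of largest 3′ minus 5′ difference as red triangles. Gata1, Cd79b, Fcer1g, Csf2rb2 and Cybb climb with Epor, Il7r, Csf2ra, Csf2rb and Il6ra. The high end of Il3ra and Hdc is made by the 2 red arrays.

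Csf2rb went with its paralogue. Csf2rb2, the mouse beta chain that serves IL-3 alone, ran from 5.24 through 5.62 to 8.14 and climbed with Csf2rb (r = 0.77, rho = 0.82, p = 1e-05 for both, adjusted p = 7.55e-07, limma). Without the 2 farthest spleens r was 0.70, and within the 33 arrays of number 9 rho was 0.81. The genes are close copies and 1 probe set on the array is assigned to both, so binding of one gene's RNA to the other's probe set was not tested. Csf2ra, the GM-CSF alpha chain, had an r of 0.52 (p = 0.00019) and a rho of 0.50 (p = 0.00032) with Csf2rb (adjusted p = 0.00341), and an r of 0.46 without the 2 farthest spleens.

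Myeloid markers rose with Csf2rb, but many of these calls rested on 2 arrays. Of 10 late neutrophil markers 9 were called higher, of 10 eosinophil, basophil and mast cell markers 7, and of 10 monocyte and macrophage markers 3. The background was 4.59% of all genes higher and 8.56% lower. The 2 arrays with the largest 3′ minus 5′ difference were also the 2 spleens with the highest Csf2rb, at 8.99 and 8.78. Without them, 2 of 10 late neutrophil, 0 of 10 eosinophil, basophil and mast cell and 4 of 10 monocyte and macrophage markers were called, and the share of all genes called in either direction was 5.56%. Csf2rb had an r of 0.46 with the 3′ minus 5′ difference (permutation p = 0.00133) and a rho of 0.28 (p = 0.0569). Without those 2 arrays r was 0.16. Counts for Csf2rb with this difference as a covariate are not given here, and the part of RNA quality in these calls was not separated. Mmp9, a protease of neutrophil granules, had an r of 0.53 (p = 0.00023) and a rho of 0.50 (p = 0.00038), and an r of 0.37 without those arrays. Csf1r, the macrophage growth factor receptor, had a rho of 0.49 (p = 0.00058, adjusted p = 0.0435) and an r of 0.44 without them.

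Genes of the spleen framework moved with Csf2rb too. Of 11 stroma and endothelium markers, 5 were called higher and 0 lower, among them Col4a2 and Col4a1, which make basement membrane collagen, and Pdgfrb, a receptor of pericytes (rho = 0.54, 0.48 and 0.53). The genes most like Csf2rb were Tspan14, Fcgr2b, Lamp1, Grn and Slc44a2, with rho from 0.62 to 0.69 and r from 0.63 to 0.76 (each p = 1e-05). Fcgr2b is the inhibitory Fc receptor, and Lamp1 and Grn encode lysosomal proteins. Phf5a and Eef1e1 were least like it (rho = -0.76 and -0.73). The second Csf2rb probe set had a rho of 0.95 with the first and called 4.33% of genes in either direction. Within line 6113 the share was 0.809% and within line 6070 it was 6.92%.

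Csf2ra ran with phagocyte genes although it moved by only 0.52 log2 units. All 10 late neutrophil, all 5 primary granule, 8 of 10 monocyte and macrophage and 7 of 11 dendritic and MHC class II markers were called higher with it, against 14.2% of all genes higher and 20.9% lower. Fcer1g and Tyrobp, adaptors that carry signals of Fc and other immune receptors, were most like it (rho = 0.86 and 0.85). Fcer1g ran from 6.23 through 6.81 to 8.66, and Tyrobp from 6.52 through 7.33 to 9.32. With Gm2a, Anxa1 and Cnn2, the 5 most similar genes had r from 0.80 to 0.90 (each p = 1e-05), and from 0.76 to 0.87 without the 2 farthest spleens.

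Csf1r ran from 6.90 through 8.10 to 10.66 and had an r of 0.81 and a rho of 0.79 with Csf2ra (p = 1e-05 for both, adjusted p = 9.45e-10, limma). Lyz2, the lysozyme of myeloid cells, had a rho of 0.80, as did Mmp9. S100a9, a calcium-binding protein that fills neutrophils, ran from 5.30 through 7.37 to 11.78 with a rho of 0.72. The rho of the 9 markers named from the 3 lists was 0.64 to 0.80 over all spleens, 0.71 to 0.85 within the 33 arrays of number 9 and 0.16 to 0.70 within the 11 of number 7. With principal component 1 as a covariate, all 10 late neutrophil markers were still called, while 0 of 10 monocyte and macrophage markers were. B cell genes were called higher with Csf2ra too, 11 of 11 early B and 5 of 6 mature B markers. Erythroid genes were lower with it: 7 of 13 were called lower and 0 higher, led by Ermap, Car2 and Gata1 (rho = -0.67, -0.65 and -0.63). D030056L22Rik and Golph3 were least like Csf2ra (rho = -0.84 and -0.81). The second Csf2ra probe set had a rho of 0.19 with the first and called 3 of 10 late neutrophil and 1 of 10 monocyte and macrophage markers, so the counts above are those of 1 probe set near the floor.

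Il3ra was highest in 1 unusual spleen. Its level there was 6.04, against 5.65 in the next spleen and a median of 5.30. These were the arrays with the largest and second largest 3′ minus 5′ difference. The spleen with the highest Il3ra also had the eosinophil granule genes Prg2 at 11.78 and Epx at 11.30, where the other 45 spleens apart from the second array reached at most 7.48 and 5.83. Il3ra had an r of 0.54 with the 3′ minus 5′ difference (p = 0.00137) but a rho of 0.11 (p = 0.477), and an r of -0.03 without those 2 arrays.

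Eosinophil, basophil and mast cell markers went with Il3ra, 7 of 10 higher against a background of 8.53% of genes higher and 13.2% lower. Mcpt8, a basophil protease, had an r of 0.74 (p = 0.0001) and a rho of 0.51 (p = 0.00025). Cpa3, a mast cell carboxypeptidase, had an r of 0.79 (p = 0.00013) and a rho of 0.46 (p = 0.00126), and Hdc, which makes histamine, an r of 0.83 (p = 2e-05) and a rho of 0.41 (p = 0.00462). Their r was 0.35 to 0.52 without the 2 arrays, and 4 of 10 markers were then called. All 10 late neutrophil markers were called higher over the 47 spleens, and 0 of 10 without the 2 arrays, where their r was 0.14 to 0.36. Of 11 dendritic and MHC class II markers 1 was called higher, Itgax, the CD11c chain (rho = 0.63, adjusted p = 0.0129), and without the 2 arrays 5 were.

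Csf2rb, the partner of Il3ra in the IL-3 receptor, had an r of 0.62 (p = 2e-05) and a rho of 0.53 (p = 0.00017) with it (adjusted p = 5.97e-05, limma), and an r of 0.42 without the 2 arrays. The progenitor list had 1 of 12 genes higher and 1 lower, Lmo2 (rho = -0.58, adjusted p = 0.00387, limma). Neither count exceeded the share of all genes, 8.53% higher and 13.2% lower. The genes most like Il3ra were Man2b1, Ywhaz, Fcgr2b, Vps4b and Syngr2, with rho from 0.69 to 0.73 (each p of rho = 1e-05) and r from 0.61 to 0.74 without the 2 arrays. Man2b1 encodes a lysosomal mannosidase. Bola3 and Armc1 were least like it (rho = -0.76 for both).

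Csf3r is the receptor of neutrophils and their precursors, but none of 10 late neutrophil or 5 primary granule markers was called higher with Csf3r, and 2 of the late list were lower, S100a8 and S100a9 (adjusted p = 0.0247 and 0.0377, limma). The background was 7.85% of all genes higher and 5.0% lower. S100a8 lay between 5.05 and 10.97 in the 13 spleens with high Csf3r (median 6.15) and between 5.21 and 11.99 in the 34 others (median 8.50). Late neutrophil markers called lower numbered 8 of 10 within number 9 and 0 within line 6070. Without the 2 arrays of largest 3′ minus 5′ difference they numbered 5. In each of these settings 0 were called higher. With high and low spleens pooled, the rho of S100a8, S100a9 and Lcn2 with Csf3r was -0.45 to -0.43 within the 33 arrays of number 9. Within the 11 of number 7 it was 0.47 to 0.57. For the 3 primary granule markers of largest absolute rho it was -0.52 to 0.19 and 0.50 to 0.55. S100a8 exceeded log2 7 in 4 of the 13 and in 26 of the 34. Ngp, a granule protein of maturing neutrophils, exceeded it in 2 of the 13 and in 15 of the 34.

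Correlations were also taken within the sets. Among the 34 spleens with low Csf3r, rho with S100a8, S100a9 and Lcn2 was 0.29, 0.31 and 0.27, and among the 13 with high Csf3r it was 0.09, 0.13 and -0.29. Elane, the neutrophil elastase, had a rho of 0.43 in the low set and 0.42 in the high set, at levels that stayed between 5.34 and 5.92 in all spleens. Of 10 monocyte and macrophage markers 4 were lower with Csf3r. Lyz2, one of them, had a median of 7.96 in the spleens with high Csf3r and 9.49 in the others (adjusted p = 0.011).

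**Figure D4:**
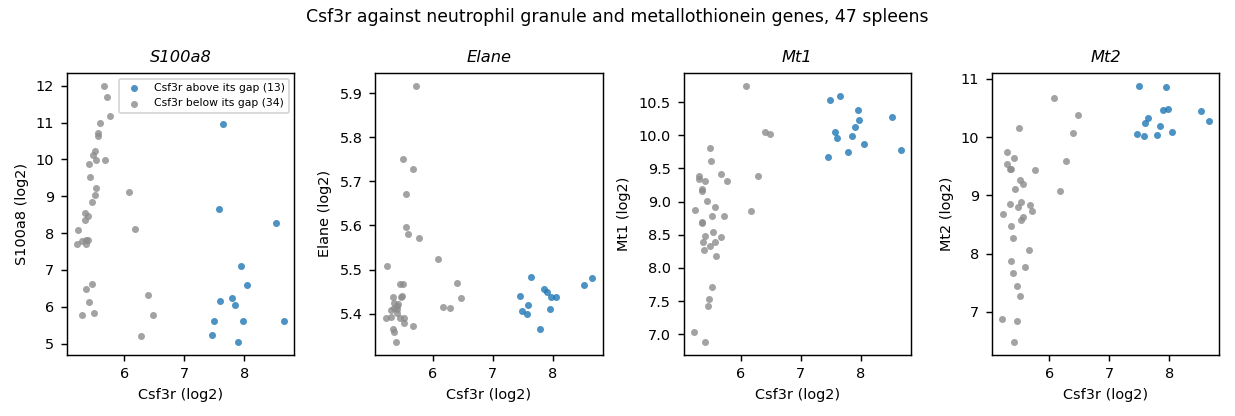
Csf3r (x, log2) against S100a8, Elane, Mt1 and Mt2 (y, log2) in 47 spleens, with the 13 spleens above the gap in Csf3r in blue and the 34 below it in grey. The blue spleens sit high for Mt1 and Mt2 (at least 9.68 and 10.03), and S100a8 exceeds log2 7 in 4 of them.

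Metallothioneins were the genes most like Csf3r in order. Mt1 and Mt2, small proteins that bind zinc and are induced by metals and stress hormones, lay between 9.68 and 10.59 and between 10.03 and 10.88 in the 13 spleens with high Csf3r. In the 34 others they ran from 6.89 to 10.74 and from 6.49 to 10.67. Both were called higher with Csf3r (adjusted p = 0.000138 for each, limma). Within the sets rho was 0.02 for Mt1 and 0.26 for Mt2 over the 13 spleens, and 0.31 and 0.27 over the 34. The phosphate transporter Slc20a1, the histidyl-tRNA synthetase Hars and Rab8b followed, at 7.41 to 8.14 for Slc20a1 in the high set and 6.52 to 7.83 in the low set. Pitpna and Selenok were least like Csf3r, with rho of -0.34 and -0.45 within the low set and of 0.47 and 0.11 within the high set.

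Fewer genes were called with Csf3r in subsets of the spleens. With the 34 low spleens alone 0 genes were called, and with principal component 1 as a covariate 0.0495% were. Within line 6070 the share was 0%, and within line 6113 it was 2.66%. Of 13 erythroid markers 4 were higher with Csf3r, including Ermap (adjusted p = 0.0106) and Car2 (adjusted p = 0.0292). Gata1 exceeded log2 7 in all 13 spleens with high Csf3r and in 18 of the 34 others. The 3′ minus 5′ difference had a median of 1.37 in the high set and 1.26 in the low set. Csf3r had a rho of 0.10 with this difference within the high set and 0.41 within the low set. With the difference as a covariate 8 of 10 late neutrophil markers were called lower with Csf3r and 0 higher.

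Il7r went with B cell and MHC class II genes and, in the fit on levels, with few T cell genes. All 11 early B and 5 of 6 mature B markers were called higher with Il7r, against 13.2% of all genes higher and 21.5% lower. Of the dendritic and MHC class II list 7 of 11 were higher and 1 lower, with a median rho of 0.68 beside 0.67 for the early B list. Of 10 monocyte and macrophage markers 6 were higher, and of 10 megakaryocyte markers 4 were higher and 2 lower. The genes most like it were Pou2af1, Snn, Mzb1, Cd79b and Blnk, with rho from 0.90 to 0.93 and r from 0.92 to 0.96 (each p = 1e-05). Pou2af1 is a B cell coactivator, and Mzb1 a chaperone of antibody secretion. Cd79b, a signalling chain of the B cell receptor, ran from 5.11 through 5.89 to 9.33 (r = 0.95, rho = 0.92, adjusted p = 1.2e-21, limma). Its r was 0.94 without the 2 farthest spleens. Within number 9 its rho was 0.94, and within number 7 it was 0.78.

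Of 10 T cell markers 2 were called higher with Il7r, Lef1 and Cd2 (rho = 0.78 and 0.76, p = 1e-05 for both, adjusted p = 0.000239 and 0.00399). Cd3d, a chain of the T cell receptor complex, ran from 5.24 through 5.54 to 10.23. It had an r of 0.11 with Il7r (p = 0.474), a rho of 0.51 (p = 0.00035) and an adjusted p of 0.603. On ranks, 7 of 10 T cell markers were called higher, and with principal component 1 as a covariate 7 were called lower and 0 higher. With that covariate 8 of 11 early B and 5 of 6 mature B markers were called higher. Crlf2, which pairs with Il7r to bind TSLP, was higher with it (r = 0.61, rho = 0.68, p = 1e-05 for both, adjusted p = 4.04e-05). Fermt3 and Rmdn3 were least like Il7r, with rho of -0.86 and -0.85. Of 13 erythroid markers 8 were lower, led by Gata1 and Car1 (rho = -0.76 and -0.65). The second Il7r probe set had a rho of 0.93 with the first and called 10 of 11 early B and 2 of 10 T cell markers.

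Il6ra went with macrophage and neutrophil genes over a range of 0.99 log2 units. Of 10 late neutrophil markers 9 were called higher, of 10 monocyte and macrophage markers 7, and of 10 T cell markers 0. The background was 10.6% of all genes higher and 16.2% lower. Cybb, the membrane part of the phagocyte oxidase, was most like it (r = 0.79, rho = 0.88, p = 1e-05 for both, adjusted p = 2.12e-07, limma) and ran from 5.58 through 6.24 to 7.98. Fcer1g, Csf1r, Wdfy4 and Syk followed with rho from 0.77 to 0.80. Without the 2 farthest spleens the r of these 5 genes ran from 0.57 to 0.80. Of 11 early B markers 10 were also higher with Il6ra. Il6st, its signalling partner, had an r of 0.53 (p = 0.00035) and a rho of 0.52 (p = 0.00022, adjusted p = 0.00129).

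Csf3r, the other granulocyte receptor set beside Il6ra, was not called with it (adjusted p = 0.170, limma). Among the 34 spleens with low Csf3r its rho with Il6ra was 0.32, and among the 13 with high Csf3r it was 0.15. S100a8 and S100a9 had rho of 0.67 with Il6ra (p = 1e-05 for both). Mak16 and Cdk7 were least like it (rho = -0.81 and -0.80). The second Il6ra probe set spanned 0.18 log2 units, had a rho of -0.03 with the first, and called 0 of 10 late neutrophil and 0 of 10 monocyte and macrophage markers. Within line 6113 these lists gave 0 and 1 of 10, and within line 6070 they gave 10 and 7. The share of all genes called with Il6ra was also lower within line 6113, as given at the end. The rho of S100a8, S100a9 and Csf1r with Il6ra was 0.60, 0.62 and 0.74 within line 6113. Within line 6070 it was 0.71, 0.70 and 0.81.

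The receptors were then set against each other in all 36 pairs, of which 17 were called, 11 higher and 6 lower. These counts stand beside the shares of all genes called with the receptor fitted on. The shares ran from 0.0385% (Kit) to 19.3% (Epor) higher and from 0.0055% (Kit) to 21.5% (Il7r) lower. Csf2ra and Il6ra were the closest pair (r = 0.72, rho = 0.68, p = 1e-05 for both, adjusted p = 3.31e-07, limma, for Il6ra fitted on Csf2ra). Csf2ra also went with Il3ra (r = 0.63, rho = 0.62, adjusted p = 2.3e-05) and with Il7r (r = 0.58, rho = 0.61, adjusted p = 0.000109), each permutation p at most 3e-05. With principal component 1 as a covariate the slope of Il7r on Csf2ra turned to -2.53 (adjusted p = 0.225), while the other pairs were still called higher. Without the 2 farthest spleens r was 0.67, 0.52 and 0.70 for these pairs. Within number 9 rho was 0.74, 0.63 and 0.65, and within number 7 it was 0.56, 0.48 and 0.25.

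Epor ran against 4 receptors of other lineages. Flt3 was called lower with it (adjusted p = 0.0202, limma, for Epor fitted on Flt3), with rho of -0.46 over the 7 spleens with high Flt3 and 0.18 over the other 40. Epor was also lower with Csf2ra (r = -0.61, rho = -0.56), with Il3ra (r = -0.45, rho = -0.63) and with Il7r (r = -0.63, rho = -0.58), with each permutation p at most 0.00049 and adjusted p of 3.94e-05, 0.0052 and 1.99e-05. Without the 2 farthest spleens r was -0.63, -0.49 and -0.60. Within number 9 rho was -0.56, -0.65 and -0.68, and within number 7 it was -0.56, -0.51 and 0.25. With principal component 1 as a covariate 5 of the 36 pairs were called, and none of these 4. The slopes of Csf2ra and Il7r on Epor then turned positive, at 0.0892 and 1.04 (adjusted p = 0.458 and 0.247), as did that of Epor on Flt3, at 0.0169 (adjusted p = 0.787).

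High Flt3, high Il7r and high Csf3r were found in different combinations of spleens. All 7 spleens with high Flt3 had Il7r between 7.50 and 8.40, while in the other 40 Il7r ran from 5.31 to 8.98. Of the 11 spleens with Il7r above log2 7, 63.6% also had Flt3 above it, and of the 9 with Flt3 above it 77.8% had Il7r above it. None of the 13 spleens with high Csf3r had Flt3 or Il7r above log2 7, and their highest levels were 5.52 and 6.02. Csf2ra stayed at or below 5.36 in those 13 spleens and reached 5.70 in the others. These combinations were chosen after the values were seen and are given as a description.

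**Figure D5:**
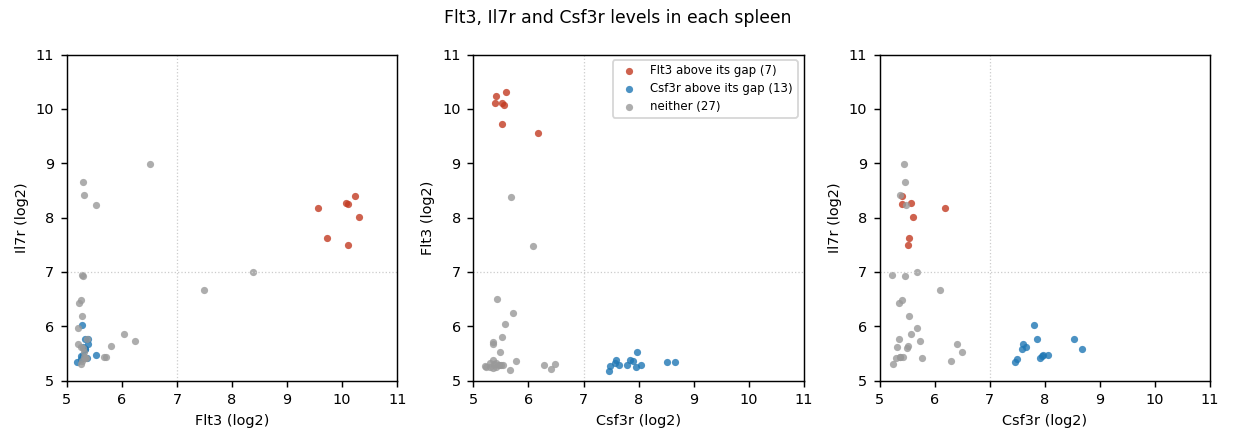
Levels of Il7r against Flt3, of Flt3 against Csf3r and of Il7r against Csf3r (log2 on all axes) in 47 spleens. Red points are the 7 spleens with high Flt3, blue points the 13 with high Csf3r, and grey points the 27 in neither set. No spleen lies above log2 7 (dotted lines) for Csf3r and for Flt3 or Il7r.

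The wider pathway was read from lists of ligands, other receptors and signalling genes. Of 24 signalling genes, Il7r had 8 higher and 6 lower, and Epor 7 higher and 7 lower, beside 13.2% and 21.5% of all genes for Il7r and 19.3% and 14.4% for Epor. The 6 of 24 lower with Il7r lie near its share of all genes. Jak2, the kinase that many of these receptors use, and Stat5a, its target, were lower with Il7r (rho = -0.80 and -0.73, p = 1e-05 for both, adjusted p = 6.94e-08 and 1.17e-09, limma). Shc1, an adaptor of the RAS pathway, was higher with Epor and Cbl, a ubiquitin ligase that turns receptors off, was lower (rho = 0.78 and -0.72). Ptpn6, the phosphatase SHP-1 that restrains cytokine receptors, was higher with Csf2ra and Il6ra (rho = 0.79 and 0.71). Socs2 had a rho of 0.61 with Csf2rb (p = 2e-05) but an adjusted p of 0.0673.

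Of 24 other cytokine receptors, 13 were higher with Csf2ra, 12 with Il7r, 11 with Il6ra and 10 with Flt3, and 12 were lower with Epor. The shares of all genes were 14.2%, 13.2%, 10.6% and 8.4% higher for those 4 receptors and 14.4% lower for Epor. Csf1r and Cxcr4, the chemokine receptor that holds blood cells in the marrow, recurred among the 3 closest with Csf2ra, Il7r and Il6ra, and both were lower with Epor (rho = -0.61 and -0.74). Of 9 ligands, Csf1 was higher with Csf2ra, Il7r and Il6ra (rho = 0.82, 0.68 and 0.65) and lower with Epor (rho = -0.56). Flt3l and Epo, ligands of Flt3 and Epor, were not analysed here. Kitl was not called with Kit (adjusted p = 0.700), nor Csf3 with Csf3r (adjusted p = 0.154), while Il3 was called with Il3ra (r = 0.73, p = 0.00031, rho = 0.23, p = 0.113). The r of Il3 with Il3ra was 0.34 without the 2 arrays of largest 3′ minus 5′ difference.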

How the data were processed

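RNA of 47 leukaemic spleens, 1 per mouse, was measured on Affymetrix arrays. The log2 values are those deposited by the authors, who used RMA in the affy package (R 2.15), according to the submitters' processing notes. The number of arrays limits the precision. GEO's annotation gave 34945 probe sets a single gene, and the brightest of each gene was used. A gene had to exceed log2 5 in 9 or more arrays, which 18178 of 18193 did. limma 3.58.1 (lmFit, eBayes; R 4.3.3) gave p-values, adjusted by Benjamini-Hochberg over the whole table, with calls at 0.05. Erg was fitted with line and sex as covariates, line with Erg and sex, sex with Erg and line, and age with all 3. Receptor fits had none. The fits were tested on simulated data.

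Genes were named by rule. From those above log2 7 in 5 or more arrays came the 5 with the highest and the 2 with the lowest rho per receptor. A paired gene and the 3 markers of largest absolute rho per list were added. Rag1 and Stat5a with Flt3 and Slc4a1 and Hba-a1 with Epor were named after their values were seen. So were Prg2 and Epx with Il3ra, and Ngp and Gata1 with Csf3r. The receptors and lists were chosen with earlier results of these data known.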

Additional observations from a re-analysis of the deposited data

Results flagged for a closer look

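In the groups of 9 arrays made by Erg label and line, each receptor was examined in each group, giving 18 sets. In 4 sets 1 array lay far from the rest. Chance would flag about 1 in 20 sets of unrelated values, but this rate cannot be compared with the count here. The Csf2rb and Il3ra flags were the same array, and Flt3 had separate high and low spleens. The highest Flt3 array with the Erg insertion in line 6113 stood at 10.10, with the next at 7.48. In line 6070 without the Erg insertion, 1 array stood at 8.99 for Csf2rb, with the next at 7.39, and at 6.04 for Il3ra, with the next at 5.43. That array had the largest 3′ minus 5′ difference of all 47, and the part of RNA quality was not tested. The highest Il6ra array with the Erg insertion in line 6113 stood at 6.15, with the next at 5.60.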

How the results depend on the processing

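No paired analysis was possible because replicate numbers were given in accession order and pair no samples. The fits within a line or identifier number, without the 2 arrays of largest 3′ minus 5′ difference, below a gap and with principal component 1 were chosen after seeing the data, except the pairs within lines. The cause of each move was not tested, except that fewer arrays or genes were used where the setting says so. Near-floor levels limit Csf2ra, Il3ra, Il6ra, Hba-a1, Csf3, Il3 and the second probe sets, and 24 of 47 arrays go against their sex label.

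The percent of all genes that go with a receptor moved by over 1.5 times as follows. Among genes above log2 7 in 5 arrays it was 39.3 for Flt3, 60.4 for Epor, 34.4 for Csf2rb, 65.7 for Csf2ra, 49.1 for Il3ra, 31.1 for Csf3r, 58.1 for Il7r and 54.7 for Il6ra. With principal component 1 it was 0.116 for Kit, 2.18 for Flt3, 4.79 for Epor, 5.29 for Csf2ra, 0.0495 for Csf3r, 6.69 for Il7r and 4.13 for Il6ra. Within line 6113 it was 0.0055 for Kit, 2.4 for Flt3, 18.0 for Epor, 0.809 for Csf2rb, 18.9 for Csf2ra, 6.42 for Il3ra, 2.66 for Csf3r, 22.0 for Il7r and 1.38 for Il6ra. Within line 6070 it was 0 for Kit and Csf3r, 2.89 for Flt3, 20.1 for Epor, 6.92 for Csf2rb and 17.1 for Il7r. Within number 9 it was 0 for Kit, 11.0 for Flt3, 1.06 for Csf2rb and 15.9 for Il6ra. On ranks it was 0 for Kit, 1.47 for Flt3 and 3.44 for Csf3r. The second probe set gave 0 for Kit, 4.33 for Csf2rb, 14.6 for Csf2ra and 0.495 for Il6ra. Without the 2 farthest arrays it was 0 for Kit, 10.0 for Flt3 and 5.56 for Csf2rb, and 5.56 for Csf2rb without the 2 arrays of largest 3′ minus 5′ difference. Below the gap it was 0.913 for Flt3 and 0 for Csf3r. For Kit it was also 0.022 with label covariates, 0.0715 with the number as a block and 0.0275 with the 3′ minus 5′ covariate. Of 36 pairs, 9 were called within line 6070, 11 within line 6113 and 5 with principal component 1, against 17.

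Some uncalled differences turned sign. The Erg difference became 0.0031 for Il3ra and -0.0073 for Il6ra with no covariates, 0.478 for Csf3r and -0.038 for Il6ra with age added, and 0.0173 for Il3ra with the number as a block. It became 0.212 for Flt3, 0.0145 for Csf2ra and 0.0558 for Csf3r in arrays matching the sex label, and -0.017 for the second Kit probe set. The line difference became 0.0206 for Csf3r with no covariates, and 0.081 for Csf3r and 0.0022 for Il3ra with the number as a block. The age slope of Flt3 became -0.0721 with no covariates. With principal component 1, slopes that were called turned sign: Epor on Flt3 to 0.0169, Csf2ra on Flt3 to -0.0062, Csf2ra on Epor to 0.0892, Csf3r on Epor to -0.475, Il7r on Epor to 1.04, Il7r on Csf2ra to -2.53 and Il7r on Csf3r to 0.0097. Label comparisons called 0 genes under every alternative run.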
